A study of Mus musculus with 15 samples.

Results

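Organic ion carriers and ABC transporters were followed in mouse kidney as the genes whose symbols place them in the Slc22, Slco, Slc47, Abca, Abcb, Abcc and Abcg families. The symbol rule, which used no measured value, found 85 genes among the 23284 of the deposited table. Levels are in FPKM, fragments scaled to transcript length and library depth, so they can be set beside each other between genes. Of the 85, 51 reached at least 1 FPKM in 5 or more libraries and were tested, namely 19 of 26 Slc22 genes, 7 of 15 Slco, 1 of 2 Slc47, 8 of 16 Abca, 7 of 10 Abcb, 7 of 10 Abcc and 2 of 6 Abcg. The other 34 averaged at most 0.504 FPKM over the 15 libraries, and 9 of them were listed at 0 in every library.

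The cells of the proximal tubule clear drugs, toxins and waste metabolites from blood into urine in a pair of steps. Carriers of the Slc22 and Slco families in the basolateral membrane take organic anions and cations from blood into the cell. Carriers of the Slc47 and Slc22 families and ATP-driven pumps of the ABC families in the apical membrane pass them on into the urine or bring filtered solutes such as urate back. Other ABC proteins move lipids, or work in mitochondria and lysosomes rather than at the cell surface.

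The study compared wild-type kidneys at 2 h of D-ala, L-ala or vehicle, with 5 libraries in each group. D-alanine and L-alanine are mirror images of each other, and L-alanine is the form built into proteins. The sources used here do not give dose, route, the make-up of the vehicle, age or sex, and whether D-ala and L-ala were matched in dose is therefore unknown here. The labels do not say that libraries of a group came from separate animals, so p-values measure the spread between these libraries, which may be partly technical.

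Recovered depth was 7570000 to 10940000 reads per library, rounded. L-ala replicate 5 stood apart in several genes: without it, 2580 genes were called in L-ala against vehicle, against 1297 with it. Without vehicle replicate 4 the same comparison called 321. All 8 proximal tubule markers were detected in the libraries, and their summed level was 11310 to 12520 FPKM in D-ala, 10650 to 12160 in L-ala and 8723 to 10180 in vehicle. The sum in every D-ala and L-ala library was above that in every vehicle library. For the 4 markers of the last proximal tubule segment the groups overlapped. Their sums were 3670 to 4670 FPKM in D-ala, 4198 to 4810 in L-ala and 3892 to 4632 in vehicle. Against vehicle, 0 of these 4 were called with D-ala, and 1 was called higher and 1 lower with L-ala. The 7 endothelial markers summed to 64.8 to 97.4 FPKM in D-ala, 57.1 to 131 in L-ala and 93.7 to 161 in vehicle. In whole kidney, fewer cells of a type and less RNA per cell cannot be told apart.

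In level, the group was led by Slc22 carriers of the proximal tubule, and 9 genes averaged over 100 FPKM and 26 over 10 FPKM across the 15 libraries. Slc22a12, the urate and anion exchanger URAT1 of the apical membrane, averaged 910.2 FPKM (774.5 to 1166), and its range did not overlap that of the next gene. Slc22a18, an imprinted orphan carrier, followed at 449.6 FPKM (368 to 533). Below it the ranges of neighbouring genes overlapped step by step: Slc22a6 at 314 FPKM, Slc47a1 at 287, Slc22a8 at 247, Abcg2 at 232, Slc22a2 at 210.1 and Slc22a7 at 129.5.

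Each transport step had a dominant gene beside relatives that were low or absent. For cation uptake, Slc22a2 (OCT2) on chromosome 17 (12584132 to 12628488) was high, whereas its relative Slc22a3 (OCT3) averaged 0.266 FPKM. For cation efflux, Slc47a1 (MATE1) averaged 287 FPKM and Slc47a2 0.0737, with 0 to 4 rescaled counts per library. For anion uptake, Slc22a6 (OAT1) and Slc22a8 (OAT3) lie side by side on chromosome 19, from 8618039 to 8628299 and from 8591254 to 8611835 in GRCm38 (GENCODE M21). Among the Slco carriers of larger organic anions, Slco1a6 led at 92.2 FPKM, then Slco3a1 at 71.0 and Slco1a1 at 69.3, while the liver-type Slco1b2 averaged 0.0264 FPKM.

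The ABC pumps were uneven in the same way. Abcg2 (BCRP, an apical pump of urate and drugs) averaged 232 FPKM and Abcc2 (MRP2, an apical pump of conjugates) 44 FPKM. Abcc4 (MRP4, an apical pump of anions and cyclic nucleotides) averaged 7.90 FPKM. The P-glycoprotein genes were low, Abcb1b at 2.67 and Abcb1a at 1.20 FPKM, and the bile salt pump of liver, Abcb11, averaged 0.00527. The Abcb genes with the highest levels, Abcb8 at 27.9 and Abcb6 at 21.9 FPKM, code for transporters of mitochondria and other membranes inside the cell. Among lipid transporters, Abca3, a phospholipid transporter of lung lamellar bodies, averaged 68.9 FPKM and the cholesterol exporters Abca1 and Abcg1 averaged 3.11 and 1.57. Abca3 overlaps a transcript on the opposite strand, D330041H03Rik, at 64.9 FPKM, and whether counting used strand is not given in the sources used here.

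**Figure D1:**
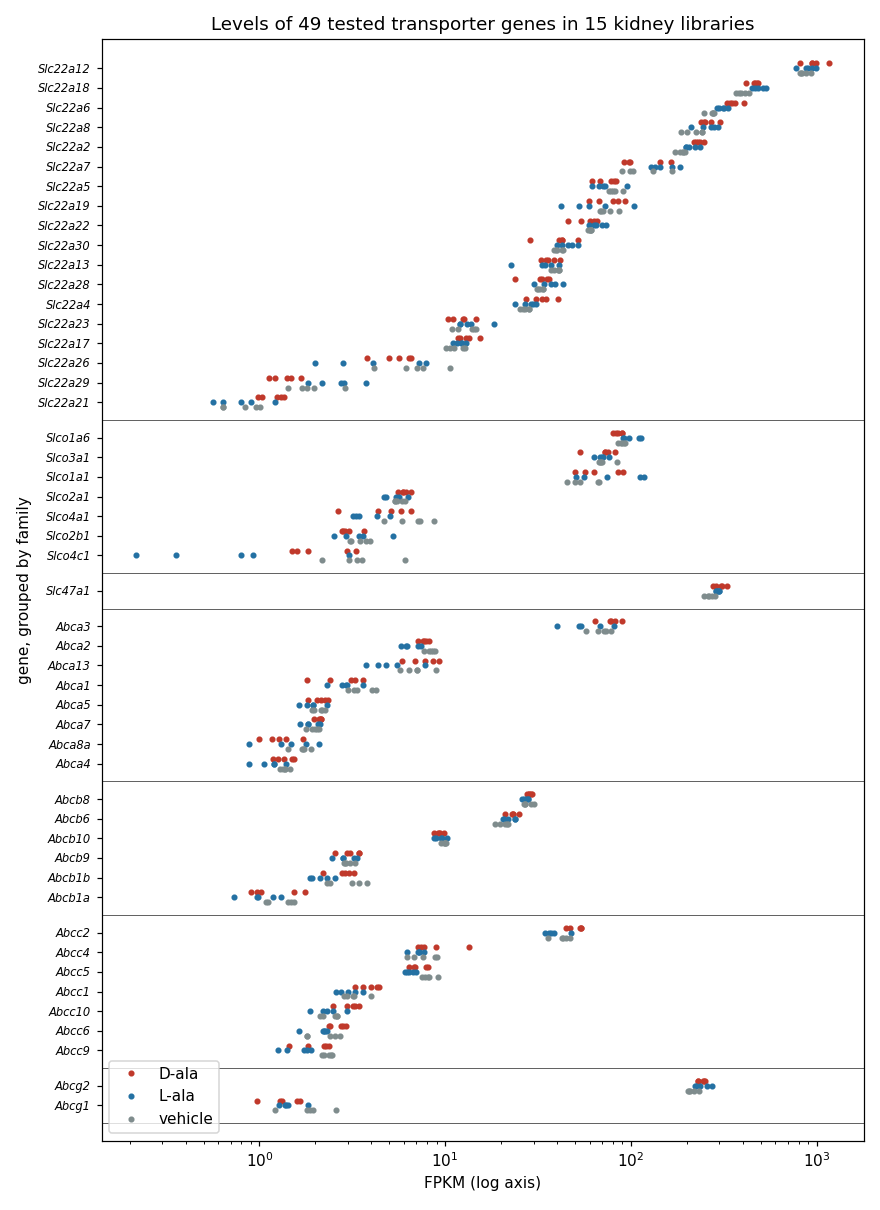
FPKM on a log axis for 49 of the 51 tested genes, 1 point per library, by family and mean level, for D-ala, L-ala and vehicle (5 libraries each). Slc22a12 stands at the top, from 774.5 to 1166 FPKM, Slco4c1 has the widest scatter, and most genes show the 3 groups on top of one another.

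Within groups the genes were about as variable as others: the median within-group SD of log2(FPKM + 1) was 0.149 over the 51 genes and 0.136 over all 11781 tested. Slco4c1 varied most at 0.507, then Slc22a26 at 0.492 and Slco1a1 at 0.407, while Slc47a1 was among the steadiest at 0.072. Tests used log2(FPKM + 1) in limma, a linear model with a moderated spread, and calls needed a p under 0.05 after Benjamini-Hochberg adjustment over all tested genes. Fold changes are log2 differences on that scale, with their SE.

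The first comparison asked which of the genes D-ala changed relative to vehicle. With D-ala, 5 carriers were higher: the anion uptake carrier Slc22a6, the cation uptake carrier Slc22a2, the cation efflux carrier Slc47a1, the ergothioneine carrier Slc22a4 and the orphan carrier Slc22a18 rose. The calls were 5 higher, 1 lower and 45 not passing of the 51 tested, where 6.53% of all tested genes were called higher, 4.92% lower and 11.5% in either direction. In 3 of the 51 the groups did not overlap, where that held for 10.9% of all tested genes. Both shares of the 51 lie near or under the background.

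Slc22a6 had 409, 329, 342, 365 and 349 FPKM in D-ala, 298, 313, 292, 318 and 335 in L-ala, and 276, 273, 282, 247 and 278 in vehicle. Every D-ala library was above every vehicle library. Its mean was 359 ± 30.8 FPKM in D-ala and 271 ± 13.9 in vehicle (SD, n = 5 each), a log2 difference of 0.40 (SE 0.063, limma adjusted p = 8.19e-04). Its neighbour Slc22a8, which carries an overlapping set of anions, had 269, 251, 248, 240.2 and 302 FPKM in D-ala and 225, 187, 243, 202 and 243 in vehicle. Those groups overlapped, and the log2 difference of 0.25 did not pass (95% interval 0.05 to 0.46, limma adjusted p = 0.0957).

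Slc22a2, which brings cations such as creatinine into the tubule cell, had 247, 220.2, 229, 226 and 236 FPKM in D-ala, 198, 220.4, 205, 198 and 236 in L-ala, and 192, 196, 190.3, 174 and 185 in vehicle. D-ala and vehicle did not overlap. The log2 difference was 0.30 (SE 0.058, limma adjusted p = 0.00362).

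The promoters of these 3 uptake carriers are shown because Slc22a6 and Slc22a2 rose and Slc22a8 adjoins Slc22a6. Each runs from 250 bases before to 50 after the RefSeq start in build GRCm38.p6. Capitals mark the 50 bases from the start onward.
Slc22a6, chr19:8617746-8618045, + strand: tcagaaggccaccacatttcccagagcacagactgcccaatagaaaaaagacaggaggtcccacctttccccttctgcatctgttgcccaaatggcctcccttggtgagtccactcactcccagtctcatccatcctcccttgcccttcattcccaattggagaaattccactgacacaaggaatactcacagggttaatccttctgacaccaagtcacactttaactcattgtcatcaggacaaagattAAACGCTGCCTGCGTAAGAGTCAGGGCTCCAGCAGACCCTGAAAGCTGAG
Slc22a8, chr19:8592932-8593231, + strand: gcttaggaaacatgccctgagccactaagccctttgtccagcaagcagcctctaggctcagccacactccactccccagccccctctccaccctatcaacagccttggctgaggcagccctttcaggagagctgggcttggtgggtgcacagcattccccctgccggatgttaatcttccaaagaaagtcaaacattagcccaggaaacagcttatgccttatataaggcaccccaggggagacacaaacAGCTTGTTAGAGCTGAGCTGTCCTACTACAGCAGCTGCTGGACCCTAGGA
Slc22a2, chr17:12583939-12584238, + strand: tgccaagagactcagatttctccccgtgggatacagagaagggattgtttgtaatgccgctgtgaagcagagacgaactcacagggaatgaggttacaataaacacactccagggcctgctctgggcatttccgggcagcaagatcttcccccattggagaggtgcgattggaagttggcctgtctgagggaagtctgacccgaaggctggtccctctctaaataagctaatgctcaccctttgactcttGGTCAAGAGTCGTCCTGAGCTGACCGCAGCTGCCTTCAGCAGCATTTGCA
The letters searched, on both strands, were the cyclic AMP response element TGACGTCA (in Abcg2 alone of the 69 members in the promoter table, and in 1.79% of all 32851 promoters), the E-box CACGTG (8 members, 7.15%) and the AP-1 site TGANTCA (2 members, 7.81%), none of them in these 3 windows. The member counts are of genes, which have 79 promoters between them, and the percentages are of promoters, so the 2 are unlike units. A match is a description of letters, not a site shown to be bound.

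Slc47a1, the proton-driven exchanger that passes cations into the urine, had 304, 277, 289, 309 and 329 FPKM in D-ala, 287, 287, 295, 298 and 300.1 in L-ala, and 264, 285, 273, 248 and 259 in vehicle. Among D-ala libraries, replicate 2 lay within the vehicle range. The log2 difference was 0.18 (SE 0.054, limma adjusted p = 0.041). Slc22a4, the ergothioneine carrier, had 31, 27.3, 33.1, 40.6 and 34.9 FPKM in D-ala, 23.9, 29.7, 26.8, 29.1 and 31 in L-ala, and 26.3, 28.2, 25.3, 28.4 and 27 in vehicle. Again 4 of 5 D-ala libraries were above all vehicle libraries, at a log2 difference of 0.28 (SE 0.088, limma adjusted p = 0.0487).

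Slc22a18 had 481, 416, 460.2, 466 and 481 FPKM in D-ala, 468, 483, 533, 517 and 450.0 in L-ala, and 411, 383, 391, 368 and 435 in vehicle. It was above all vehicle libraries in 4 of 5 D-ala libraries and in all 5 of L-ala, and it was the 1 gene called against vehicle in each group. For D-ala the log2 difference was 0.21 (SE 0.064, limma adjusted p = 0.0403).

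The apical pumps gave no call in this comparison. Abcc2 averaged 50.6 ± 4.33 FPKM in D-ala and 42.6 ± 4.09 in vehicle, a log2 difference of 0.24 (95% interval 0.06 to 0.43, limma adjusted p = 0.0836). Abcg2 averaged 241 ± 9.71 FPKM in D-ala and 214 ± 12.6 in vehicle, a log2 difference of 0.17 (95% interval 0.04 to 0.30, limma adjusted p = 0.0893). Their intervals exclude 0 before correction over all genes and allow changes as large as those called. The intervals of Abcc4 (-0.12 to 0.45), Abcb1a (-0.31 to 0.17), Abcb1b (-0.29 to 0.17) and the urate exchanger Slc22a12 (-0.01 to 0.35) included 0.

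Slc22a6 and Slc22a2 were called in all 9 other settings of the analysis and in all 15 fits with 1 library left out. For Slc22a18, Slc47a1 and Slc22a4, leaving out D-ala replicate 1, 3, 4 or 5, L-ala replicate 2 or vehicle replicate 1, 3 or 4 ended each call, and L-ala replicate 1, 3 or 4 or vehicle replicate 2 or 5 ended some of them (limma adjusted p of lost calls 0.0501 to 0.11). Each of these 3 calls was also lost with the GC trend removed and with quantile normalization, where Slc47a1 was at 0.085 (limma adjusted p = 0.392). In all, each was lost in 3 to 6 of the 9 other settings. Beside these results, 4 of the 8 proximal tubule markers rose with D-ala and 4 did not pass, 1 of them lower at an unadjusted limma p under 0.05. Of the 7 endothelial markers, 3 fell and 4 did not pass, and all 7 were lower at an unadjusted limma p under 0.05. With each library set relative to its proximal tubule markers, a step added after the data had been seen, the median of all genes was -0.15. On that scale Slc22a6 was at 0.25 (limma adjusted p = 0.0261), and the other 4 that rose were at 0.03 to 0.16 and not called (limma adjusted p 0.142 to 0.729).

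**Figure D2:**
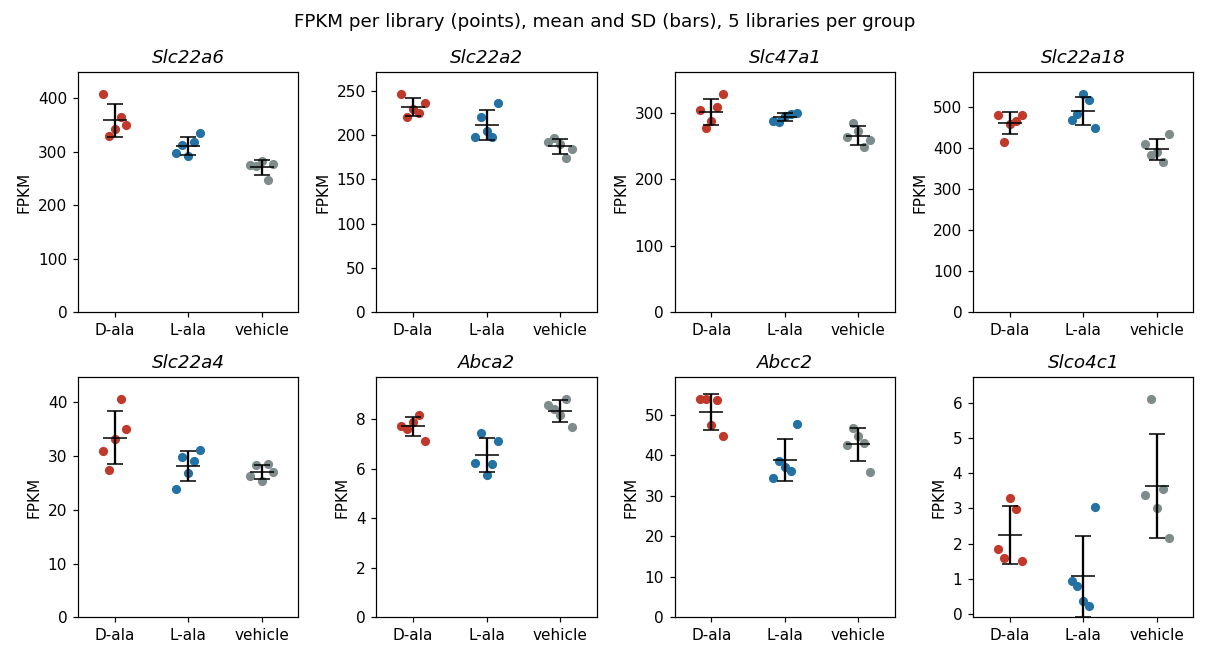
FPKM per library (points) with group mean and SD (bars) for 8 genes, with D-ala, L-ala and vehicle from left to right and 5 libraries each. The 5 D-ala libraries of Slc22a6 (329 to 409 FPKM) lie above the 5 of vehicle (247 to 282), and in Slco4c1 1 L-ala library at 3.04 FPKM stands apart from 4 at 0.217 to 0.928.

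The second comparison set L-ala against vehicle. With L-ala, Slc22a18 rose, and 5 genes of lower level fell: the lipid transporter Abca2 of endosomes and lysosomes, the cyclic nucleotide exporter Abcc5 (MRP5), the potassium channel subunit Abcc9 (SUR2), and the organic anion carriers Slco4a1 and Slco4c1. Of the 51, 2 were called higher, 5 lower and 44 did not pass, where 6.48% of all tested genes were called higher, 4.53% lower and 11% in either direction. The groups did not overlap in 8 of the 51, against 7.24% of all tested genes. The share of calls in either direction is near the background, though lower calls outnumbered higher ones here and not over all genes. The share without overlap is above the background.

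For Slc22a18 the mean was 490.4 ± 34.3 FPKM in L-ala and 398 ± 26 in vehicle (SD, n = 5 each), a log2 difference of 0.30 (SE 0.064, limma adjusted p = 0.0121). Slc22a6, Slc22a2 and Slc47a1, called with D-ala, were also above every vehicle library in all 5 L-ala libraries, at log2 differences of 0.20, 0.17 and 0.14, but did not pass (limma adjusted p = 0.0517, 0.0669 and 0.0903).

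Slco4c1, which in human and rat carries thyroid hormone and digoxin into tubule cells, had 1.84, 1.6, 3.29, 2.97 and 1.49 FPKM in D-ala, 0.928, 0.798, 0.356, 0.217 and 3.04 in L-ala, and 3.36, 6.11, 3.02, 3.55 and 2.16 in vehicle. Against vehicle, 4 of 5 L-ala libraries were below all 5 and replicate 5 lay within the vehicle range. The log2 difference was -1.26 (SE 0.293, limma adjusted p = 0.0197) and -1.53 without L-ala replicate 5 (limma adjusted p = 0.00173). The L-ala values rest on 21, 18, 8, 5 and 68 rescaled counts. Slco4a1, another carrier of thyroid hormone, averaged 3.85 ± 0.788 FPKM in L-ala and 6.74 ± 1.54 in vehicle (SD, n = 5 each), a log2 difference of -0.66 (SE 0.180, limma adjusted p = 0.0325), with 4 of 5 L-ala libraries below all of vehicle.

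Abca2 had 7.73, 7.61, 7.86, 8.17 and 7.12 FPKM in D-ala, 6.23, 7.44, 5.75, 6.19 and 7.10 in L-ala, and 8.56, 8.40, 8.16, 8.80 and 7.66 in vehicle. L-ala and vehicle did not overlap, at a log2 difference of -0.31 (SE 0.067, limma adjusted p = 0.0132). Abcc5 averaged 6.46 ± 0.358 FPKM in L-ala and 8.15 ± 0.639 in vehicle, a log2 difference of -0.29 (SE 0.069, limma adjusted p = 0.0194). For Abcc9, which forms channels of vascular smooth muscle and pericytes, the mean was 1.63 ± 0.277 FPKM in L-ala and 2.33 ± 0.125 FPKM in vehicle, a log2 difference of -0.35 (SE 0.096, limma adjusted p = 0.0326). Neither gene had overlapping groups.

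These falls had a pattern with transcript length beside them. All 8 tested Abca genes and all 7 Abcc genes were below 0 with L-ala, with medians of -0.18 and -0.09, whereas 14 of 19 Slc22 genes were above 0, with a median of 0.12. The Abca and Abcc genes have the longest transcripts of the group, at medians of 7648 and 5811 bases, against 2271 for Slc22 and 3046 over 10403 tested genes with a length. Across the 51 genes the Spearman correlation of the L-ala difference with length was -0.52, and across the 10403 genes it was -0.46. The genes share libraries and are not replicates, so these are descriptions. With the length trend of each library removed, 6 of 8 Abca and 4 of 7 Abcc genes were below 0. Their medians were then -0.06 and -0.003. The Slc22 genes stayed at 14 of 19 above 0, with a median of 0.11. Abca2, Abcc5, Slco4a1 and Slco4c1 were still called, and Abcc9 was not (limma adjusted p = 0.124). After that step the correlation for L-ala was still -0.34 over the 51, and -0.05 over the 10403. For D-ala against vehicle, without that step, the correlation was -0.14 over the 51.

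Abca2 and Slc22a18 were called in all 15 fits with 1 library left out, Abcc5 in all but that without L-ala replicate 4 (limma adjusted p = 0.0539) and Slco4c1 in all but those without L-ala replicate 4 or vehicle replicate 4 (0.0559 and 0.055). Abcc9 and Slco4a1 each lost their call without L-ala replicate 2 or 4 or vehicle replicate 1, 4 or 5, Slco4a1 also without L-ala replicate 1 and Abcc9 without vehicle replicate 3 (limma adjusted p of lost calls 0.05 to 0.0941). Quantile normalization ended the calls of Slc22a18, Abcc9 and Slco4a1. Beside these results, 4 of the 8 proximal tubule markers rose with L-ala and 4 did not pass. Of the 7 endothelial markers, 5 fell and 2 did not pass, and 6 were lower at an unadjusted limma p under 0.05. Relative to the proximal tubule markers, where the median of all genes was -0.18, Slc22a18 was at 0.11 and not called (limma adjusted p = 0.243), and 16 members were called lower. The 5 fibroblast and pericyte markers summed to 13.8 to 29.7 FPKM in L-ala and 19.2 to 33 in vehicle, and 0 of the 4 tested were called by limma (2 lower at an unadjusted p under 0.05), at a median log2 difference of -0.26. The part of endothelial or pericyte RNA in the fall of Abcc9 was not tested.

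**Figure D3:**
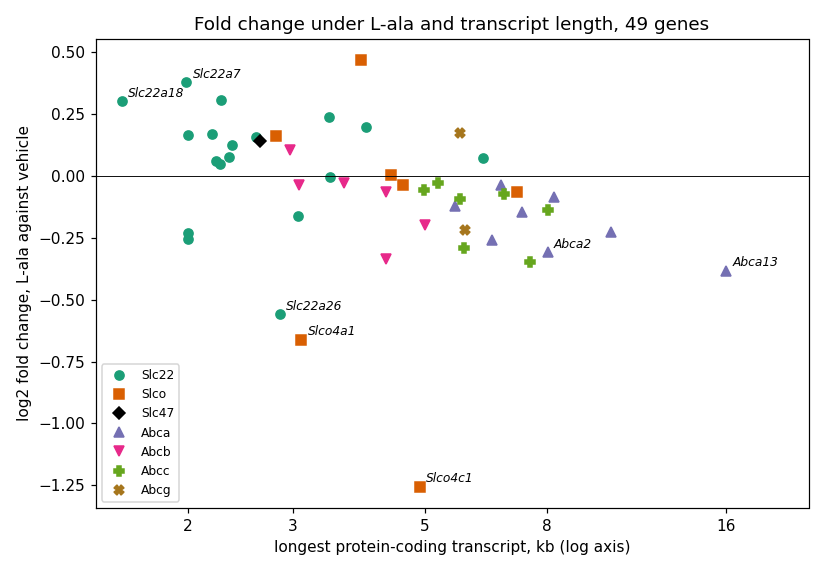
Log2 difference between L-ala and vehicle (y) against the length of the longest protein-coding transcript in kb on a log axis (x), 1 point for each of 49 tested genes, marked by family. Slc22 genes at the short end lie mostly above 0, all Abca and Abcc genes lie below it, and Slco4c1 is lowest at -1.26.

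The third comparison set D-ala against L-ala. Between the mirror-image compounds, the apical conjugate pump Abcc2, the anion uptake carrier Slc22a6 and the lipid transporters Abca2 and Abca13 were higher with D-ala, and Slc22a29 and Slco1a6 were lower. Of the 51, 4 were called higher, 3 lower and 44 did not pass, where 7.01% of all tested genes were called higher, 6.66% lower and 13.7% in either direction. The groups did not overlap in 4 of the 51, against 9.11% of all tested genes, and both shares are near the background.

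Abcc2 had 53.7, 53.8, 47.3, 53.5 and 44.7 FPKM in D-ala, 34.5, 38.4, 37, 36.1 and 47.7 in L-ala, and 42.6, 46.8, 44.8, 43.1 and 35.9 in vehicle. D-ala was highest and L-ala lowest in mean, and L-ala replicate 5 alone lay among the D-ala libraries. Between D-ala and L-ala the log2 difference was 0.38 (SE 0.088, limma adjusted p = 0.0131). All 7 tested Abcc genes were above 0 in this comparison, at a median of 0.26, and also with the length trend removed, at 0.19. Abcc2 was the 1 called. The Spearman correlation of this difference with transcript length was 0.33 over the 51 genes and 0.38 over 10403. With the length trend removed it was 0.14 and 0.02.

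Slc22a29, a gene of the Slc22 cluster on chromosome 19 (8160165 to 8218900), had 1.66, 1.48, 1.41, 1.13 and 1.21 FPKM in D-ala, 2.73, 2.18, 3.75, 2.85 and 1.83 in L-ala, and 1.69, 1.43, 2.89, 1.81 and 1.96 in vehicle. D-ala and L-ala did not overlap, at a log2 difference of -0.61 (SE 0.137, limma adjusted p = 0.0113). Its values rest on 23 to 76 rescaled counts, and reads could have been divided with its close relatives in the cluster. Slco1a6 had 89.7, 80.4, 83.7, 85.7 and 90.1 FPKM in D-ala and 92.4, 97.4, 90.4, 114 and 110.4 in L-ala, without overlap, at a log2 difference of -0.22 (SE 0.065, limma adjusted p = 0.0319).

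Slc22a6 was also higher with D-ala than with L-ala, at a log2 difference of 0.20 (SE 0.063, limma adjusted p = 0.0452), and 4 of 5 D-ala libraries were above all of L-ala. Abca2 differed by 0.21 (SE 0.067, limma adjusted p = 0.0478). Abca13, the longest gene of the group, averaged 7.67 ± 1.34 FPKM in D-ala and 5.25 ± 1.56 in L-ala (SD, n = 5 each), a log2 difference of 0.49 (SE 0.151, limma adjusted p = 0.0416). Other carriers called against vehicle were not shown to differ between the compounds: the intervals were 0.01 to 0.26 for Slc22a2, -0.08 to 0.15 for Slc47a1, -0.22 to 0.05 for Slc22a18, 0.05 to 0.42 for Slc22a4, -0.13 to 0.64 for Slco4a1 and 0.13 to 1.38 for Slco4c1, none passing after adjustment. Slco4c1 was at 0.75 (limma adjusted p = 0.0979), and without L-ala replicate 5 it was called at 1.03 (limma adjusted p = 0.00577). Without that library Slc22a2 at 0.17 and Slc22a4 at 0.27 were also called (limma adjusted p = 0.0291 and 0.0427). Slc22a2 was called with quantile normalization too, and Slc22a4 without D-ala replicate 2 (limma adjusted p = 0.0439 and 0.0325).

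Abcc2 and Slc22a29 were called in all 9 other settings and in all 15 fits with 1 library left out. Slco1a6 lost its call without D-ala replicate 2, 3 or 4 or L-ala replicate 4 (limma adjusted p 0.0589 to 0.085). Its call was also lost with quantile normalization, with only the compared groups in the fit and with the GC trend removed (limma adjusted p = 0.182, 0.0728 and 0.0646). Slc22a6, Abca2 and Abca13 each lost theirs without D-ala replicate 1, 3 or 4, L-ala replicate 1, 3 or 4 or vehicle replicate 2 or 3, some of them without D-ala replicate 2 or 5, L-ala replicate 2 or vehicle replicate 1, 4 or 5 (limma adjusted p of lost calls 0.0511 to 0.116), and each with the length trend removed. Without L-ala replicate 5, 11 members were called higher, against 4 with it. Of the 8 proximal tubule markers, Slc5a12 was itself called lower with D-ala than with L-ala. Relative to the proximal tubule markers, Abcc2 at 0.42 and Slc22a29 at -0.57 were still called (limma adjusted p = 0.0157 and 0.0158), and Slc22a6 at 0.24, Abca2 at 0.25, Abca13 at 0.53 and Slco1a6 at -0.19 were not (limma adjusted p 0.0646 to 0.166), where the differences without this step were 0.20, 0.21, 0.49 and -0.22.

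**Figure D4:**
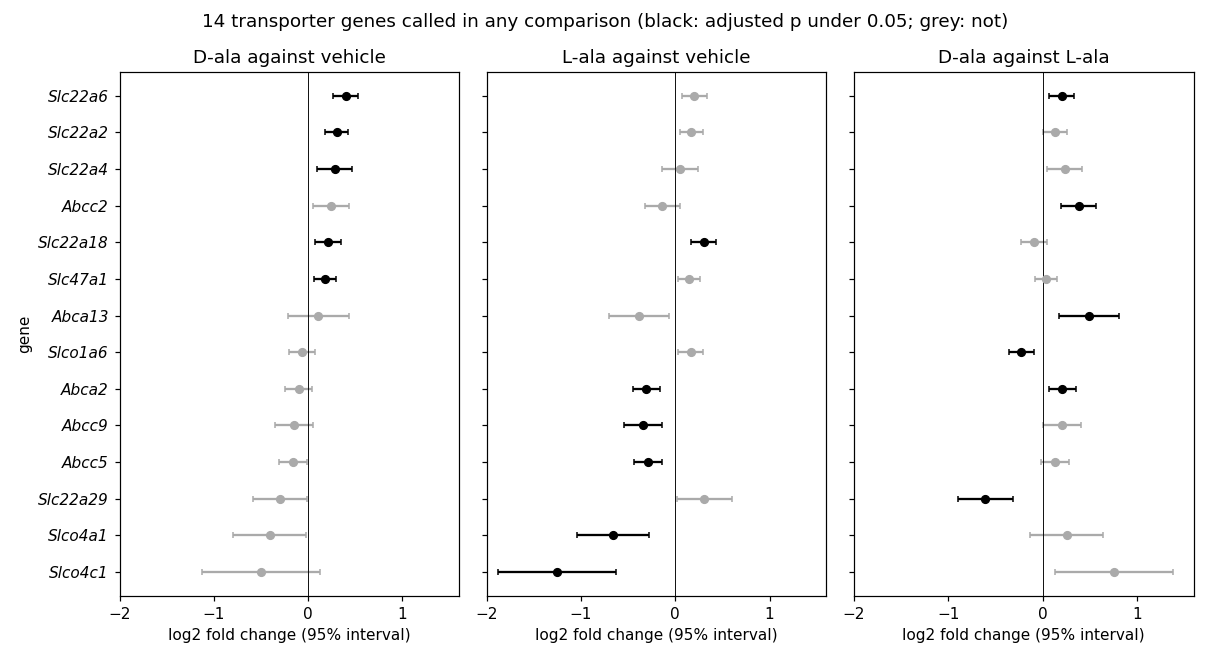
Log2 differences with 95% intervals for 14 of the 16 genes called in any comparison, in 3 panels for D-ala over vehicle, L-ala over vehicle and D-ala over L-ala. Black marks an adjusted p under 0.05 and grey a larger one; Slc22a6 is black in the first and last panel, Slc22a18 in the first and second, and Slco4c1 has the widest intervals.

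Of the 51 genes, 16 were called in any comparison and 35 in none. Comparisons share libraries, so their calls are not independent. The D-ala and L-ala values against vehicle share the vehicle libraries and stand side by side for the genes in neither list of calls: Slc22a12 at 0.17 and 0.06, Slco1a1 at 0.27 and 0.47, Slco3a1 at -0.02 and -0.04, Abca1 at -0.27 and -0.23, Abcg1 at -0.28 and -0.22, Abca3 at 0.17 and -0.26, Abcb6 at 0.16 and 0.10, and Abcb8 at 0.03 and -0.04. The Slc22 levels added up to 2890 to 3213 FPKM in D-ala, 2930 to 3180 in L-ala and 2572 to 2850 in vehicle, so both alanine groups lay above every vehicle library. Abcb1b, at -0.34 with L-ala (95% interval -0.57 to -0.10, limma adjusted p = 0.0569), and Abcb1a, at -0.20 (-0.44 to 0.05), are close relatives between which reads could have been divided.

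Genes that work with these carriers were called about as often as all tested genes. Over 5 lists, 6 of 47 tested were called with D-ala (12.8%, against 11.5% of all genes), 5 with L-ala (10.6%, against 11%) and 7 between the compounds (14.9%, against 13.7%). Of 9 tested partner carriers, which supply the dicarboxylates that drive anion exchange or move urate, 0 were called with D-ala by limma (3 higher and 1 lower at an unadjusted p under 0.05), and 1 with L-ala, the dicarboxylate carrier Slc13a3 at 0.22 (limma adjusted p = 0.034). Between D-ala and L-ala, Slc5a8 was higher by 0.37 (limma adjusted p = 0.0267) and Slc5a12 lower, at -0.41 (limma adjusted p = 0.0484), and these code for lactate carriers of the tubule. Of 5 tested proteins that anchor apical carriers, ezrin (Ezr), which ties membrane proteins to actin, was called in all 3 comparisons. Ezr had 201, 178, 177, 181 and 181 FPKM in D-ala, 152, 147, 141, 140.1 and 175 in L-ala, and 129, 135, 139, 117 and 129 in vehicle, so the groups followed one another without overlap. Its log2 difference from vehicle was 0.50 with D-ala and 0.21 with L-ala, and the 2 compounds differed by 0.28 (limma adjusted p = 2.07e-04, 0.049 and 0.0141).

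Pdzk1, the scaffold that binds URAT1 and other apical carriers, rose with L-ala by 0.20 (limma adjusted p = 0.0361) and was lower with D-ala than with L-ala, at -0.22 (limma adjusted p = 0.0209). Pdzk1ip1, its binding partner, did the same, at 0.34 and -0.36 (limma adjusted p = 0.0487 and 0.0369). Of 17 tested regulators, the bile acid receptor gene Nr1h4 was higher with D-ala by 0.43, and Hnf4g at -0.40 and Rxrb at -0.27 were lower (limma adjusted p = 0.0214, 0.0321 and 0.0146). Nfe2l2, the gene of the oxidative stress regulator NRF2, was lower with L-ala, at -0.20 (limma adjusted p = 0.0375). It was higher with D-ala than with L-ala by 0.37 (limma adjusted p = 0.00115), and Nr1h4 by 0.40 (limma adjusted p = 0.0286). Hnf4a, a regulator of the carriers, was not called. Of 6 other tested drug and nucleoside carriers, the nucleoside carrier Slc28a1 rose with D-ala by 0.35 (limma adjusted p = 0.00786), and of 10 other ABC proteins, Abcf3 rose with D-ala by 0.24 (limma adjusted p = 0.0136).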

How the data were processed

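Messenger RNA of 15 mouse kidney libraries (D-ala, L-ala and vehicle, 5 each) was measured by sequencing. Per the labels' protocols, TRIzol was used to take RNA, and a stranded TruSeq mRNA kit to build libraries. The build mm10 and the tools SAMtools 0.1.19, Bowtie2 2.2.3 and TopHat2 2.0.13 are named in the submitters' processing notes. The sources used here do not give the program that counted, its annotation or its use of strand.

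The deposited table gives 3 values per gene and library. The authors' FPKM, named so per the file headers, were tested. The deposited log2 values, a processed signal per the file headers, differed by at most 0.0012 from gene-centred log2 FPKM and were not used. The deposited numbers headed as counts were treated as a score, since gaps and doubled whole numbers show 1 factor per library and a second rounding. They served to recover depth and to show how few reads lie behind low values. Divided by FPKM, they also gave the gene length used where a length trend was removed. No count model was fitted. The error given with a value is the SD over libraries.

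Of 23284 genes, the 11781 that reached 1 FPKM in 5 or more libraries entered 1 fit on log2(FPKM + 1) over all 15 libraries, with 1 mean per group, in limma 3.58.1 (R 4.3.3), with empirical Bayes moderation using the mean-variance trend and robust to outlying variances. The scale understates changes of low genes. P-values were adjusted by Benjamini-Hochberg over the 11781 genes. The fit was tested on simulated data.

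Named genes were those called in any comparison, the 3 with the highest mean of each family, and a fixed list of well-known drug carriers; of other lists, the called genes. A few genes that the rule names stay in the counts but are not reported here. The members and lists were chosen with earlier results of these data known. Alternatives changed the pseudocount, the filter, the scaling, the moderation, the libraries in the fit, length and GC trends, and left out each library; GC was known for 88.3% of tested genes. Transcript lengths in bases and gene positions are from GENCODE M21 (GRCm38), but the removal of length trends did not use these lengths. Promoters are from RefSeq (GRCm38.p6), which matched 69 members by symbol. Replicate numbers follow accession order and pair no samples.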

Additional observations from a re-analysis of the deposited data

Results flagged for a closer look

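In 5 of 81 groups of 5 libraries, 1 library of a named gene lay far from the other 4, with a gap to its nearest neighbour that exceeded Dixon's 95% critical share of the group's range. Chance flags about 1 in 20 groups.

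Slco4c1 was at 3.04 FPKM in L-ala replicate 5 and at 0.217 to 0.928 in the other L-ala libraries. Slc22a6 was at 247 FPKM in vehicle replicate 4 and at 273 to 282 in the other vehicle libraries. Abcc4 was at 13.4 FPKM in D-ala replicate 2 and at 7.11 to 8.88 in the other D-ala libraries. Slco3a1 was at 84.2 FPKM in vehicle replicate 2 and at 67.5 to 69.9 in the others. Abcg1 was at 1.82 FPKM in L-ala replicate 3 and at 1.27 to 1.42 in the other L-ala libraries.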

How the results depend on the processing

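Over the named genes, 1860 of the values under other settings kept their side of the threshold, 123 calls were lost, 33 were gained and 0 called values changed sign. Of 1592 values of genes not called, 43 changed sign with neither passing. No paired analysis was possible because replicate numbers only follow the order of the samples. The causes of the shifts below were not tested, apart from those that follow from fewer libraries in a fit. Depth limits the low genes: Slco4c1 rested on 5 to 68 rescaled counts per L-ala library.

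For D-ala against vehicle, 5 members were called higher and 1 lower. The higher count was 3 with no filter on low values and 2 with quantile normalization, and the lower count was 0 with only the compared groups in the fit, 0 with the length trend removed and 0 with the GC trend removed. Relative to the proximal tubule markers, 1 was higher, 7 were lower and 2144 genes in all were called, against 1349. Leaving out 1 library gave 2 to 6 higher, 0 to 1 lower and 812 to 1592 genes, the lowest without vehicle replicate 4.

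For L-ala against vehicle, 2 members were called higher, 5 lower and 1297 genes in all. The higher count was 1 with no filter, 0 with quantile normalization, 1 with only the compared groups and 4 with the GC trend removed, and the lower count was 3 with quantile normalization. All genes called came to 575 with quantile normalization, 603 with only the compared groups and 746 with the length trend removed. Relative to the proximal tubule markers, 0 were higher, 16 lower and 3302 genes were called. Leaving out 1 library gave 1 to 4 higher, 1 to 8 lower and 321 to 2580 genes; beside vehicle replicate 4 (321) and L-ala replicate 5 (2580), the count moved over 1.5 times without L-ala replicate 1 (626), 3 (797) or 4 (391) or vehicle replicate 1 (802) or 2 (760).

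Between the 2 compounds, 4 members were called higher, 3 lower and 1611 genes in all. The higher count was 1 with no filter, 1 with only the compared groups and 1 with the length trend removed, and all genes called came to 975 with only the compared groups. Relative to the proximal tubule markers, 1 was higher, 1 lower and 626 genes were called. Leaving out 1 library gave 1 to 11 higher, 1 to 3 lower and 770 to 2761 genes, the lowest without L-ala replicate 4 and the highest without L-ala replicate 5; D-ala replicate 1 (1019), 3 (969) or 4 (1061) and L-ala replicate 1 (1026) or 3 (1070) also moved it over 1.5 times.

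Some calls appeared under other settings. Abcc2 was called higher with D-ala than with vehicle with the length trend removed (limma adjusted p = 0.0216), and Slc22a6 higher with L-ala (0.0171). Abcg2 was called higher with the GC trend removed, with D-ala (0.0125) and with L-ala (0.0366).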

Other observations

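Carriers typical of other organs were at the edge of detection in kidney. Slco1b2, the hepatocyte uptake carrier, had 7 rescaled counts in D-ala replicate 1, 4 in L-ala replicate 1 and at most 1 in each other library, and Abcg5, which with Abcg8 exports sterols in liver and gut, had 7 in D-ala replicate 1 and at most 3 elsewhere. In that D-ala library the hepatocyte transcripts Alb and Apoa1 were at 19.1 and 13.2 FPKM, where the other 14 libraries had 4.22 to 9.45 and 1.25 to 4.09. Over all 4 hepatocyte markers, which include Ttr and Serpina1a, the sums were 110 to 261 FPKM in D-ala, 144 to 365 in L-ala and 141 to 236 in vehicle, so no D-ala library was the highest. Slc22a6 in the same library was at 409 FPKM, the highest of the 15, and without it Slc22a6 remained called against vehicle.

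In the run of related Slc22 genes on chromosome 19, levels of neighbours were far apart. Slc22a19 averaged 72.6 FPKM over the 15 libraries, Slc22a26 5.80, Slc22a27 0.141, Slc22a28 33.8, Slc22a29 2.00 and Slc22a30 42.6, while Slc22a6 and Slc22a8 beyond them averaged 314 and 247. Near-identical stretches in such a cluster could divide reads between its genes.

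Marker sums of other cell types were as follows, with no part in the results tested. The 4 neutrophil markers in the table summed to 2.38 to 11.2 FPKM in D-ala, 13.1 to 34.9 in L-ala and 0.641 to 7.72 in vehicle, so every L-ala library was above all others. The 4 markers of the thick ascending limb summed to 1156 to 1854 FPKM in D-ala, 1054 to 1507 in L-ala and 1685 to 1973 in vehicle. The 3 of the distal tubule summed to 356 to 500 FPKM in D-ala, 352 to 381 in L-ala and 291 to 341 in vehicle. The 6 red blood cell transcripts summed to 36.9 to 358 FPKM in D-ala, 220 to 589 in L-ala and 22.2 to 218 in vehicle.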
